A study of Daucus carota with 6 samples.

Results

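The genes described here are the homeobox genes of the carrot root, many of which act in meristems and in the cambium. They were taken from the deposited annotation as every gene whose protein description carried the words homeobox, homeodomain, homeotic protein knotted, BEL1-like, WUSCHEL or KNAT. The search found 100 genes among 35073. Of these, 87 also carried a homeodomain entry of the Pfam protein family database in the deposited annotation. Of the 100 genes, 74 reached at least 1 FPKM in at least 3 samples and were tested, and the other 26 are described at the end. Gene names are those of the best-matching proteins in the deposited annotation, and locus IDs are given without their version suffix.

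RNA was sequenced from fleshy roots of carrot (Daucus carota) in 6 samples. The BC group (3 samples) came from transgenic carrots that were stably transformed with CYP76AD1S, cDOPA5GTS and DODA1S and accumulate betanin, a red betalain pigment. The WT group (3 samples) came from non-transgenic carrots. The sources used here do not give plant age, the promoters of the transgenes, the number of transgenic lines or whether replicates were separate plants. The p-values therefore measure the spread between these samples, which may be technical.

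A homeodomain is a DNA-binding fold, and plant homeobox genes fall into families that are told apart by what accompanies it. In Arabidopsis, WUSCHEL and its relatives (WOX) keep stem cells of the shoot, root and cambium in an undifferentiated state. KNOX proteins maintain meristem cells and work as pairs with BELL proteins. The class III homeodomain-leucine zipper (HD-ZIP III) proteins pattern vascular tissue, classes I and II respond to water deficit, abscisic acid and shade, and class IV acts in the epidermis. The storage root of carrot thickens through a cambium that makes phloem outward and xylem inward.

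Levels are FPKM, fragments scaled for transcript length and library size, so they can be compared between genes. The FPKM of a sample summed to between 1141946 and 1186758 in WT and between 1184875 and 1287459 in BC, and the read depth behind them is unknown. Genes that mark green tissue were higher in BC roots, with 50 of 70 tested rising, 5 falling and summed levels of 7219 to 10918 FPKM in WT and 23539 to 28111 FPKM in BC. The 7 green-tissue genes at 0 in every sample were all photosystem subunits. Some of the called green-tissue genes reached 1 FPKM in 1 group alone, so they had to differ to be tested. Examples are DCAR_003551, called higher, and DCAR_024925, called lower. Phloem genes went the other way, with 0 of 13 rising, 7 falling and sums of 586 to 1297 FPKM in WT and 282 to 359 FPKM in BC, and no gene of that list was at 0 throughout. Genes of epidermis and periderm rose in 18 of 37 cases and fell in 5, with sums of 926 to 1288 FPKM in WT and 1628 to 2509 FPKM in BC. The shares called were 78.6% in green tissue, 53.8% in phloem and 62.2% in epidermis and periderm, beside 46.4% of all tested genes (22.8% higher and 23.5% lower). The part of these shifts in the homeobox results was not tested. In bulk tissue, fewer cells of a type and less RNA per cell cannot be told apart.

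The comparison of BC with WT asked which homeobox genes differ between betanin-accumulating and ordinary roots. By limma on log2(FPKM + 1), with Benjamini-Hochberg adjustment over all 21033 tested genes, 11 of the 74 tested homeobox genes were higher in BC and 14 were lower at an adjusted p below 0.05, and 49 were not called. That is 33.8% called, beside 46.4% of all tested genes (22.8% higher and 23.5% lower). At least 2-fold changes were called in 5 genes upward and 2 downward, beside 19.9% of all tested genes (12.7% upward and 7.23% downward). The samples of the groups did not overlap in 36 homeobox genes, 13 higher and 23 lower in BC, or 48.6%, beside 57.1% of all tested genes. The median log2 fold change was -0.16 in the homeobox genes and -0.02 in all tested genes, and the median size of the change, regardless of sign, was 0.44 and 0.42. When the samples were rescaled to equal totals or quantile normalized, the calls were 10 higher and 20 lower. All tested genes also went from 4806 higher and 4943 lower calls to 4059 and 5647 with equal totals. With quantile normalization they had 4306 and 6023. Leaving out WT replicate 3, WT replicate 1 or BC replicate 1 left 6, 8 or 9 lower calls. The lower calls over all tested genes were then 3193, 3802 or 3430.

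The calls were counted by type. Among WOX genes 1 of 4 rose and 1 fell, among KNOX genes 3 of 12 rose and 0 fell, and among BELL genes 0 of 7 rose and 2 fell. In HD-ZIP class I, 3 of 15 rose and 3 fell. In class II, 2 of 9 rose and 1 fell. In class III, 0 of 8 rose and 1 fell. Neither of the 2 tested class IV genes and none of the 3 tested PHD genes, which join a homeodomain to a plant homeodomain finger, was called. With quantile normalization 1 class IV and 1 PHD gene were lower. Median-ratio size factors or leaving out BC replicate 3 also gave 1 lower PHD gene. Of 3 DDT genes 2 fell, of 2 tested zinc-finger homeodomain genes 1 fell, and of 8 other homeobox genes 2 rose and 3 fell, while the LUMINIDEPENDENS gene was not called. Leaving out single samples gave 1 to 5 lower calls in class I, 1 to 4 among the other homeobox genes, 1 or 2 in BELL and DDT and 0 or 1 in WOX and class II, the lowest counts among them without WT replicate 3. Without BC replicate 2, 2 class III genes were higher, and KNOX genes had 2 to 4 higher and 0 or 1 lower calls when single samples were left out. With equal totals 3 KNOX genes were called higher and 3 lower, and with quantile normalization 2 higher and 2 lower. At an unadjusted p below 0.05 (limma) 3 KNOX genes were lower, 1 PHD gene was lower, and 0 BELL, HD-ZIP III and class IV genes were higher. Of all tested genes 46.4% were called (22.8% higher and 23.5% lower). The share called was below that in KNOX, BELL, each HD-ZIP class, PHD and LUMINIDEPENDENS. It was above that in WOX, DDT, zinc-finger homeodomain and other homeobox genes, types with at most 8 tested genes each. Whether the types differ from each other or from all tested genes was not tested.

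**Figure D1:**
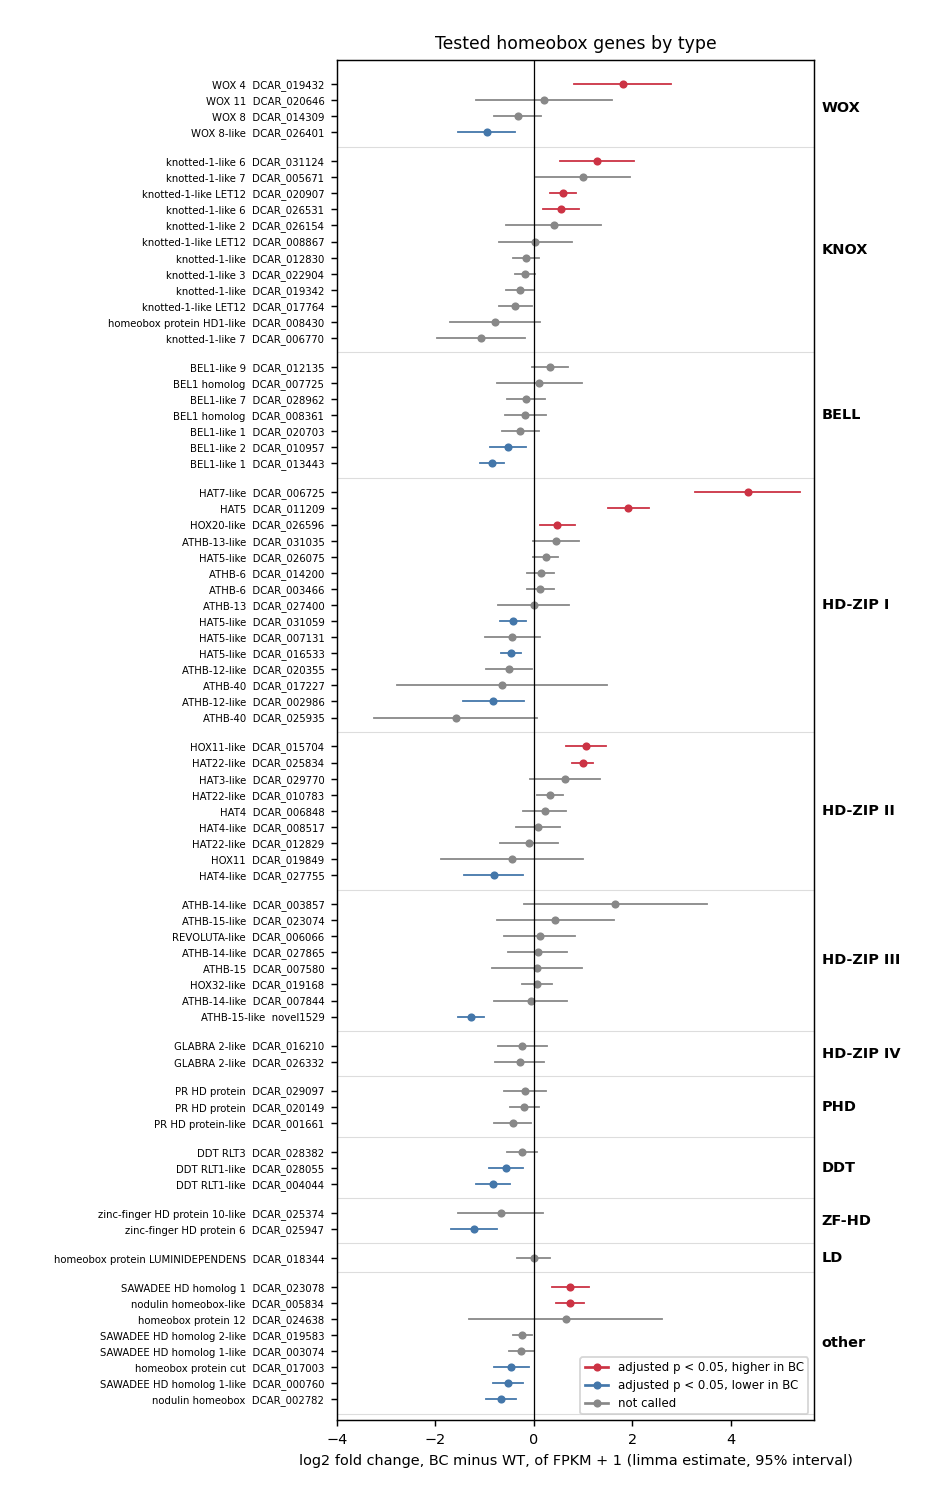
The horizontal axis is the log2 fold change of FPKM + 1, BC minus WT, for the 74 tested homeobox genes, with the limma estimate as a point and its 95% interval as a line. Rows are grouped by type, and red, blue and grey mark genes called higher, called lower and not called. HAT7-like, at 4.35, lies farthest to the right, while 7 HD-ZIP III rows have intervals that hold 0 and novel1529 lies to the left.

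Among the WOX genes, the most abundant was not the one that moved most. WOX4 (DCAR_019432), which in Arabidopsis promotes division of cambium cells downstream of a CLE peptide and its receptor TDR, was at 13.4, 10.1 and 5.53 FPKM in WT replicates 1 to 3 and 38.7, 20.1 and 52.5 FPKM in BC replicates 1 to 3. All BC samples lay above all WT samples, although the BC samples themselves spread widely. Its mean rose from 9.68 ± 3.96 to 37.1 ± 16.3 FPKM (SD, n = 3 each), a 3.83-fold difference, with a log2 fold change of 1.81, a standard error of 0.41 and an adjusted p of 0.0119 (limma). The call held under every alternative fit, with the adjusted p between 0.00547 and 0.0485.

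A WUSCHEL-related homeobox 8-like gene (DCAR_026401) was at 16.2, 12.8 and 19.1 FPKM in WT, against 8.52, 9.82 and 5.26 in BC. The groups did not overlap. It fell by 0.96 on the log2 scale (standard error 0.24, adjusted p = 0.0177, limma), and the call was lost without WT replicate 1 (adjusted p = 0.0548) or WT replicate 3 (adjusted p = 0.0691). WUSCHEL-related homeobox 8 (DCAR_014309), named for an Arabidopsis gene of the early embryo, supplied 75.4% of all WOX FPKM. Its levels of 214, 128 and 161 FPKM in the WT samples and 152, 129 and 114 FPKM in the BC samples overlapped, with a log2 fold change of -0.32 and an adjusted p of 0.225 (limma).

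WUSCHEL-related homeobox 11 (DCAR_020646), which in Arabidopsis marks founder cells of adventitious roots, was at 8.11, 18.7 and 7.33 FPKM in WT, against 17.2, 4.63 and 21.4 in BC. Replicate 2 was the highest WT sample and the lowest BC sample, and the groups overlapped. The log2 fold change was 0.21, with a 95% interval from -1.17 to 1.58 and an adjusted p of 0.795 (limma). In a fit without both libraries numbered 2, added after the data were seen, it was 1.21 (adjusted p = 0.0049, limma). That fit left out the highest WT and the lowest BC sample, which had to raise the estimate.

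Of the HD-ZIP III genes only 1 was called, and in most of the others the BC samples differed widely among themselves. The 8 genes together summed to 171, 219 and 187 FPKM in WT replicates 1 to 3 and to 239, 124 and 345 FPKM in BC replicates 1 to 3. In 7 of the 8 genes BC replicate 3 was the highest and BC replicate 2 the lowest of the BC samples, an order found in 30.1% of all tested genes and in 20 of the 74 tested homeobox genes. In 6 of them WT replicate 2 was also the highest WT sample, beside 4207 of the 21033 tested genes. In 5 of 8 genes (62.5%) the range of the BC samples covered all WT samples, beside 7.85% of all tested genes. The median distance between the highest and the lowest BC sample was 1.25 on the log2(FPKM + 1) scale, against 0.33 over all tested genes, and that between WT samples was 0.33 against 0.3. These shares are given as a description, since the genes of a sample are not independent.

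The strongest spread was in an ATHB-14-like gene (DCAR_003857), named for PHABULOSA, which in Arabidopsis sets the upper side of leaves and patterns vessels. It was at 4.28, 11.2 and 4.99 FPKM in the WT samples and 30.5, 5.68 and 56.6 FPKM in the BC samples. BC replicates 1 and 3 lay above every WT sample and BC replicate 2 lay among them. The log2 fold change was 1.66 with a standard error of 0.78 (adjusted p = 0.125, limma), and without BC replicate 2 it was 2.55 (adjusted p = 0.00679, limma). BC replicate 2 was the lowest BC sample, so leaving it out had to raise the estimate. Only fits without that sample called the gene, and the limma adjusted p reached 0.31 in the others.

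An ATHB-15-like gene (DCAR_023074) was at 21.01, 35.3 and 23.8 FPKM in WT, against 42.2, 15.7 and 66.8 in BC. It showed the same order, with a log2 fold change of 0.44 (adjusted p = 0.508, limma) that became 1.0 (adjusted p = 0.0358, limma) without BC replicate 2. Here too, only fits without that lowest BC sample called the gene, and the limma adjusted p reached 0.989 in the others. ATHB-15 (DCAR_007580), the counterpart by name of the Arabidopsis vascular regulator CORONA and the most abundant HD-ZIP III gene, was at 40.7, 51.7 and 45.7 FPKM in the WT samples and 56.7, 25.1 and 78.3 FPKM in the BC samples. Its log2 fold change was 0.07, with an interval from -0.84 to 0.99 and an adjusted p of 0.892 (limma), and without both libraries numbered 2 it was 0.62 (adjusted p = 0.0447, limma). The latter fit left out its highest WT and its lowest BC sample, which had to raise the estimate.

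The REVOLUTA-like gene (DCAR_006066), whose namesake shapes vascular bundles and lateral meristems in Arabidopsis, was at 12.9, 15.4 and 14.5 FPKM in WT, against 17.4, 9.24 and 22.9 in BC. Again BC replicates 2 and 3 lay on either side of the WT range, and the log2 fold change was 0.12 (adjusted p = 0.773, limma). The other 2 ATHB-14-like genes, DCAR_027865 and DCAR_007844, had log2 fold changes of 0.08 and -0.06, with adjusted p of 0.815 and 0.886 (limma), and the same order of the BC samples. HOX32-like (DCAR_019168) kept that order over a narrow range, at 21.4, 26.9 and 22.8 FPKM in the WT samples and 23.4, 23.03 and 27.9 FPKM in the BC samples. Its log2 fold change of 0.06 had a 95% interval from -0.24 to 0.36. In the Pfam annotation it had a homeodomain, but not the START and MEKHLA domains of 6 of the 8 genes. Its class rests on its description.

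The exception was the ATHB-15-like gene with the ID novel1529, at 15.7, 17.4 and 16.1 FPKM in WT, against 5.78, 6.64 and 6.05 in BC. Both groups were tight and did not overlap. It fell by 1.28 on the log2 scale (standard error 0.11, adjusted p = 0.000219, limma), and the call held under every alternative fit. This gene carried no Pfam entry, so its place in the class rests on its description.

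**Figure D2:**
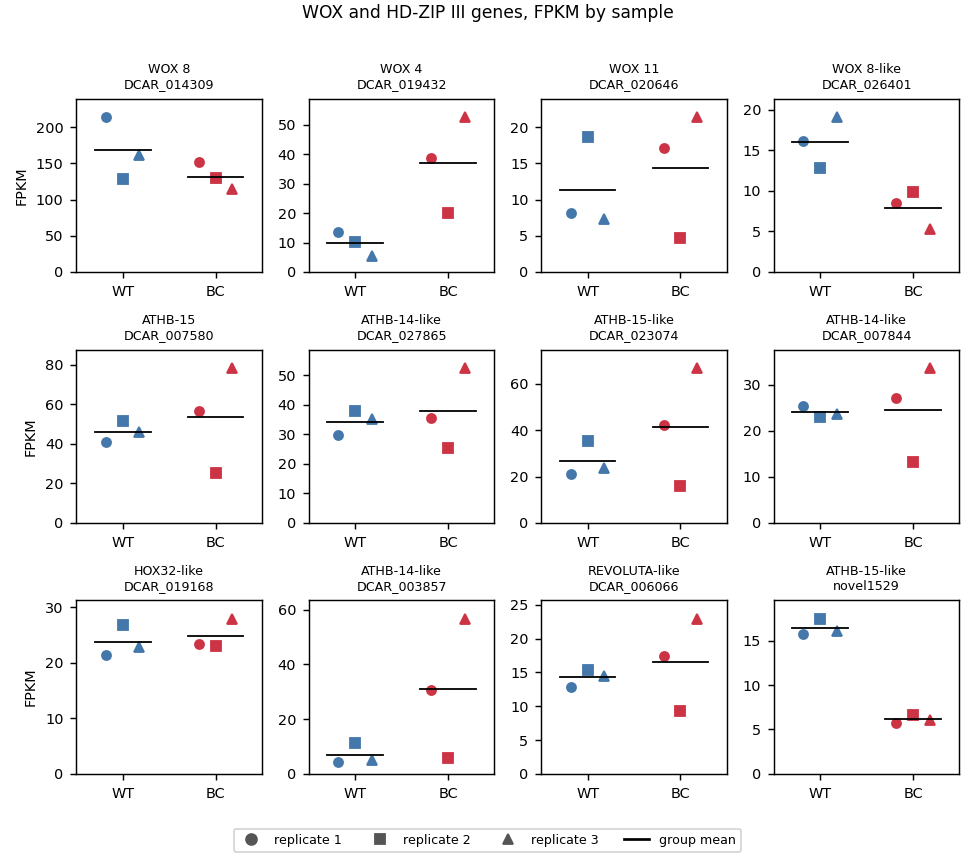
Each panel plots the FPKM of 1 gene in the 3 WT samples (blue) and the 3 BC samples (red), with symbols for the replicate numbers and a line at the group mean, for the 4 tested WOX and the 8 HD-ZIP III genes. WOX4 sits higher in all BC samples, from 20.1 to 52.5 FPKM against 5.53 to 13.4 FPKM in WT. In 7 HD-ZIP III panels the BC square (replicate 2) is lowest and the BC triangle (replicate 3) is highest.

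The same order of samples was looked for in genes that act with WOX4 and HD-ZIP III. AINTEGUMENTA (ANT), an AP2-type transcription factor of the Arabidopsis cambium, had 4 tested genes, and 0 of them passed the limma test, at an unadjusted p below 0.05 also 0. Of all tested genes 46.4% were called. The most abundant (DCAR_020068) was at 9.39, 22.2 and 9.34 FPKM in the WT samples and 31.8, 10.5 and 55.1 FPKM in the BC samples. Its log2 fold change was 1.03 (adjusted p = 0.206, limma), and 1.66 (adjusted p = 0.0262, limma) without BC replicate 2. Only fits without that lowest BC sample called the gene, with a limma adjusted p of up to 0.487 in the others. BC replicate 3 was highest, BC replicate 2 lowest and WT replicate 2 highest of WT in 4 of 4 ANT genes, and the median BC range was 2.25 on the log2 scale.

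LITTLE ZIPPER proteins bind HD-ZIP III proteins and block them in Arabidopsis, where HD-ZIP III proteins in turn switch these genes on. LITTLE ZIPPER 3-like (DCAR_009156) was at 14.7, 25.9 and 15.9 FPKM in WT, against 54.02, 6.43 and 98.0 in BC, the order of its HD-ZIP III partners. LITTLE ZIPPER 1-like (novel236) was at 68.8, 68.5 and 48.7 FPKM in the WT samples and 64.5, 11.9 and 57.3 FPKM in the BC samples, with BC replicate 2 alone far below the others. Neither passed the test, with adjusted p of 0.483 and 0.338 (limma). Without BC replicate 2 the first had a log2 fold change of 1.94 (adjusted p = 0.00701, limma). That fit left out its lowest BC sample, which had to raise the estimate.

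Of 2 tested genes for TDR, the receptor upstream of WOX4, the first (DCAR_018116) was at 6.90, 21.3 and 8.56 FPKM in WT, against 11.9, 1.41 and 25.3 in BC (adjusted p = 0.771, limma). The second (DCAR_019354) was at 4.12, 3.40 and 3.03 FPKM in the WT samples and 5.22, 4.15 and 5.36 FPKM in the BC samples (adjusted p = 0.0885, limma). Both were highest in BC replicate 3 and lowest in BC replicate 2 among BC samples. SHORT-ROOT (DCAR_010820), a GRAS factor of root tissue layers, had the same order. It was at 8.04, 0.77 and 16.9 FPKM in BC and 1.42 to 2.53 FPKM in WT. The adjusted p was 0.236 (limma), and 0.00491 without BC replicate 2, a fit that left out the lowest BC sample. Among CLE peptides and their receptors 2 of 10 tested genes rose and 1 fell, and 8 of 10 had this order. The share called there was 30.0%, beside 46.4% of all tested genes. The order was also seen in 5 of 9 genes of the OVATE and LITTLE ZIPPER list, 8 of 23 GRAS genes, the list that holds SHORT-ROOT, and 3 of 6 gibberellin oxidases. It was seen in 3 of 7 genes of the boundary and xylem list, 2 of 16 LOB domain genes and 1 of 6 cytokinin genes, and in 34 of the 81 tested genes of all lists, 42.0% beside 30.1% of all tested genes. These counts include genes of another kind caught by the search words. In the OVATE list they were the zinc finger ZPR1 genes DCAR_007797 and DCAR_017792. In the boundary and xylem list they were the GDP-mannose transporter gene DCAR_010253 and a stress response NST1 gene.

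In the CLE group, a CLE25-like gene (DCAR_006716), coding for a signalling peptide, was at 0.71, 2.08 and 0 FPKM in WT, against 2.86, 2.76 and 9.84 in BC. It was called at an adjusted p of 0.0474 (limma), and the call was lost without any one of the samples other than WT replicate 2, with log2 fold changes of 1.13 to 1.89. It was also lost with either other pseudocount, with no filter, with equal totals, with quantile normalization and without a trend (adjusted p of 0.0523 to 0.0748). BAM1 receptor kinases perceive CLE peptides in Arabidopsis, and 4 genes of this name were tested. DCAR_021995 was at 144, 119 and 122 FPKM in the WT samples and 82.7, 81.4 and 79.7 FPKM in the BC samples, and fell by 0.65 on the log2 scale (adjusted p = 0.0021, limma). DCAR_010771 was at 18.95, 25.6 and 26.3 FPKM in WT, against 30.8, 34.8 and 31.2 in BC, and was called higher by 0.45 (adjusted p = 0.0406, limma). That call was lost with no filter (adjusted p = 0.0526), equal totals (0.11) and no trend (0.0514) and without any one sample other than WT replicate 2 (0.0562 to 0.114). Leaving out both libraries numbered 2 lost it too (0.0982). DCAR_025839, at 81.9 to 155 FPKM in WT and 99.3 to 187 FPKM in BC, and the rare DCAR_001751 were not called (log2 fold changes of 0.39 and 0.43, adjusted p of 0.339 and 0.475, limma).

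The libraries that stood apart in these genes also stood apart in the summed levels of marker lists. Summed xylem and secondary wall genes, mostly laccases and XCP proteases, reached 51.1, 86.2 and 28.95 FPKM in BC replicates 1 to 3 and 10.7 to 13.2 FPKM in WT, with 3 of 5 tested genes rising and 0 falling. Of its 23 genes, 2 laccases and a COBRA-like gene were at 0 in every sample. Summed root identity genes, mostly nitrate transporters and CASP-like genes, reached 371, 472 and 159 FPKM in BC and 32.2 to 40.5 FPKM in WT (9 of 13 rose, 0 fell), and a Casparian strip membrane protein 3-like gene and 10 others of its 38 were at 0 throughout. Genes of dividing cells summed to 4071, 3582 and 4429 FPKM in BC and 3285 to 3811 FPKM in WT, with 13 of 64 rising and 11 falling. The shares called were 60.0% in the xylem list, 69.2% in the root identity list and 37.5% in the dividing-cell list, beside 46.4% of all tested genes. By these sums BC replicate 2 was the highest BC sample for the first 2 lists and the lowest for dividing cells. Gene by gene it was highest in 2 of 5 xylem genes, as was BC replicate 3, and in 7 of 13 root identity genes. It was lowest in 36 of 64 dividing-cell genes. Of all tested genes, it was highest in 27.4% and lowest in 38.6%. The part of this in the HD-ZIP III values was not tested.

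**Figure D3:**
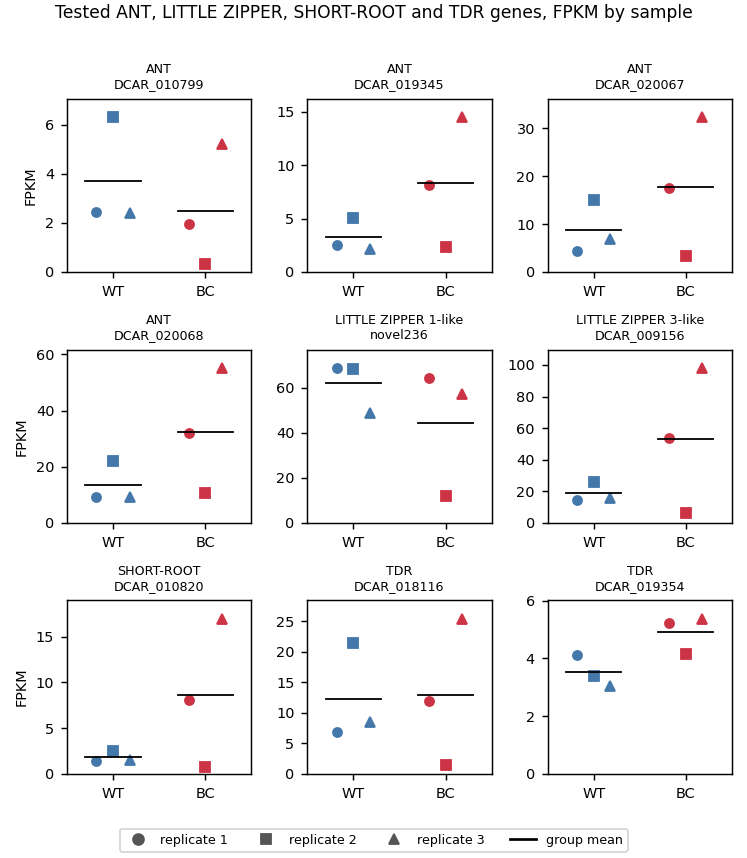
Each panel plots the FPKM of 1 gene by sample for the tested ANT, LITTLE ZIPPER, SHORT-ROOT and TDR genes, with WT in blue, BC in red, symbols for replicate numbers and a line at the group mean. In 8 of the 9 panels the BC triangle (replicate 3) is the highest and the BC square (replicate 2) the lowest of the BC samples. The SHORT-ROOT, TDR and LITTLE ZIPPER genes were chosen after their values were seen, so this count is a description. LITTLE ZIPPER 1-like is the exception, with BC replicate 1 highest.

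Among KNOX genes, a pair named knotted-1-like supplied 79.6% of all KNOX FPKM, and the called changes were in the rarer members. Some KNOX proteins keep meristem cells dividing in maize and Arabidopsis, which need not hold for every gene counted here. The most abundant gene (DCAR_019342) was at 457, 447 and 424 FPKM in WT, against 363, 413 and 323 in BC. All BC samples were below all WT samples, but the log2 fold change of -0.28 missed the threshold (adjusted p = 0.0865, limma). It was called lower with equal totals (adjusted p = 0.0201), with quantile normalization (adjusted p = 0.0218) and without BC replicate 2 (adjusted p = 0.0489).

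The second (DCAR_012830), at 212, 272 and 228 FPKM in the WT samples and 211, 207 and 217 FPKM in the BC samples, had a log2 fold change of -0.16 with an interval from -0.42 to 0.11 (adjusted p = 0.285, limma). It lies next to the HAT22-like gene DCAR_012829 in the RefSeq gene order, and that gene was not called either (adjusted p = 0.758, limma).

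Of the called KNOX genes, the knotted-1-like LET12 gene DCAR_020907, named for a tomato gene, was at 26.1, 31.0 and 27.9 FPKM in WT, against 45.2, 45.9 and 38.8 in BC. The groups did not overlap, and it rose by 0.59 on the log2 scale (standard error 0.11, adjusted p = 0.005, limma). The other 2 LET12 genes did not pass the test, DCAR_017764 with a log2 fold change of -0.37 (adjusted p = 0.0649, limma) and DCAR_008867 with 0.03 (adjusted p = 0.945, limma). DCAR_017764 was called lower with equal totals (adjusted p = 0.0446), with quantile normalization (0.0318) and without WT replicate 1 (0.0347).

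A knotted-1-like 6 gene (DCAR_026531) was at 17.3, 24.6 and 19.5 FPKM in the WT samples and 32.6, 31.3 and 26.9 FPKM in the BC samples, with no overlap. It rose by 0.55 (standard error 0.15, adjusted p = 0.0228, limma), and the adjusted p was 0.0648 to 0.0833 when WT replicates 1 or 3 or BC replicates 1 or 2 were left out. A second knotted-1-like 6 gene (DCAR_031124) was at 0.73, 0.31 and 0.61 FPKM in WT, against 4.85, 2.45 and 1.57 in BC, and rose by 1.28 (adjusted p = 0.0163, limma). It passed the filter on low values through the BC samples alone and shares its RefSeq gene with DCAR_031125. It lost its call with quantile normalization (adjusted p = 0.0747) and without both libraries numbered 2 (0.0648).

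The 2 knotted-1-like 7 genes, whose Arabidopsis namesake KNAT7 acts in secondary wall formation, pointed in opposite directions without passing the test. DCAR_006770 was at 37.2, 21.2 and 30.3 FPKM in the WT samples and 18.1, 17.9 and 7.03 FPKM in the BC samples, with a log2 fold change of -1.07 (adjusted p = 0.0554, limma). Equal totals (adjusted p = 0.029) or a pseudocount of 5 (0.0494) brought the call. DCAR_005671 was at 4.28, 1.74 and 2.28 FPKM in WT, against 8.59, 8.51 and 3.17 in BC, with a log2 fold change of 1.0 (adjusted p = 0.0788, limma) that was called without BC replicate 3 (1.4, adjusted p = 0.0141).

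Knotted-1-like 3 (DCAR_022904) was at 44.1 to 50.04 FPKM in WT and 40.3 to 44.1 FPKM in BC (adjusted p = 0.135, limma). The HD1-like gene DCAR_008430 had a log2 fold change of -0.79 (adjusted p = 0.138, limma), and knotted-1-like 2 (DCAR_026154) one of 0.40 (adjusted p = 0.449, limma). The order of the BC samples in KNOX genes was unlike that of HD-ZIP III, since BC replicate 3 was the lowest BC sample in 9 of 12 genes (75.0%), beside 31.4% of all tested genes.

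The largest change in level among BELL genes was in the most abundant one. BEL1-like homeodomain protein 1 (DCAR_013443) supplied 57.6% of all BELL FPKM and was at 352, 347 and 353 FPKM in the WT samples and 171, 202 and 212 FPKM in the BC samples. The WT samples were nearly equal, and every BC sample was far below them. The mean went from 350.6 ± 3.36 to 195.2 ± 21.4 FPKM (SD, n = 3 each), and the gene fell by 0.85 on the log2 scale (standard error 0.10, adjusted p = 0.000955, limma). The call held under every alternative fit. With it, the summed BELL level went from between 550 and 572 FPKM in WT to between 353 and 411 FPKM in BC, while the summed KNOX level was 811 to 874 FPKM in WT and 675 to 801 FPKM in BC.

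A second BEL1-like 1 gene (DCAR_020703) was at 165, 125 and 155 FPKM in WT, against 118, 146 and 105 in BC, overlapping groups with a log2 fold change of -0.27 (adjusted p = 0.203, limma). Without both libraries numbered 2 it was -0.52 (adjusted p = 0.0194, limma). That fit left out the lowest WT and the highest BC sample, which had to lower the estimate. BEL1-like 2 (DCAR_010957) was at 4.23, 3.28 and 3.45 FPKM in the WT samples and 2.23, 2.54 and 1.97 FPKM in the BC samples. It fell by 0.52 (adjusted p = 0.0314, limma), with an adjusted p of 0.0591 to 0.0985 when WT replicates 1 or 3 or BC replicates 1 or 3 were left out.

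BEL1-like 9 (DCAR_012135), the namesake of BELLRINGER, which pairs with KNOX proteins in the Arabidopsis shoot meristem, was at 15.5, 21.1 and 15.2 FPKM in WT, against 22.4, 19.6 and 23.4 in BC. Its log2 fold change of 0.33 was not called (adjusted p = 0.115, limma), and without WT replicate 2 it was 0.48 (adjusted p = 0.0221, limma). BEL1-like 7 (DCAR_028962) and the BEL1 homologs DCAR_008361 and DCAR_007725 had log2 fold changes of -0.16, -0.17 and 0.11 with adjusted p of 0.45, 0.448 and 0.821 (limma).

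OVATE family proteins repress transcription and bind KNOX and BELL proteins in Arabidopsis. An OFP12-like gene (DCAR_012488) was at 7.14, 9.15 and 9.40 FPKM in the WT samples and 21.1, 27.5 and 15.9 FPKM in the BC samples, and rose by 1.21 (adjusted p = 0.00407, limma). The OFP12 gene DCAR_030639 was at 20.9, 18.7 and 20.2 FPKM in WT, against 9.46, 6.78 and 7.86 in BC, and fell by 1.22 (adjusted p = 0.000694, limma). These were the only calls among the 9 tested genes of the OVATE and LITTLE ZIPPER list, which also holds 2 zinc finger ZPR1 genes of another kind. That is 22.2% called, beside 46.4% of all tested genes.

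**Figure D4:**
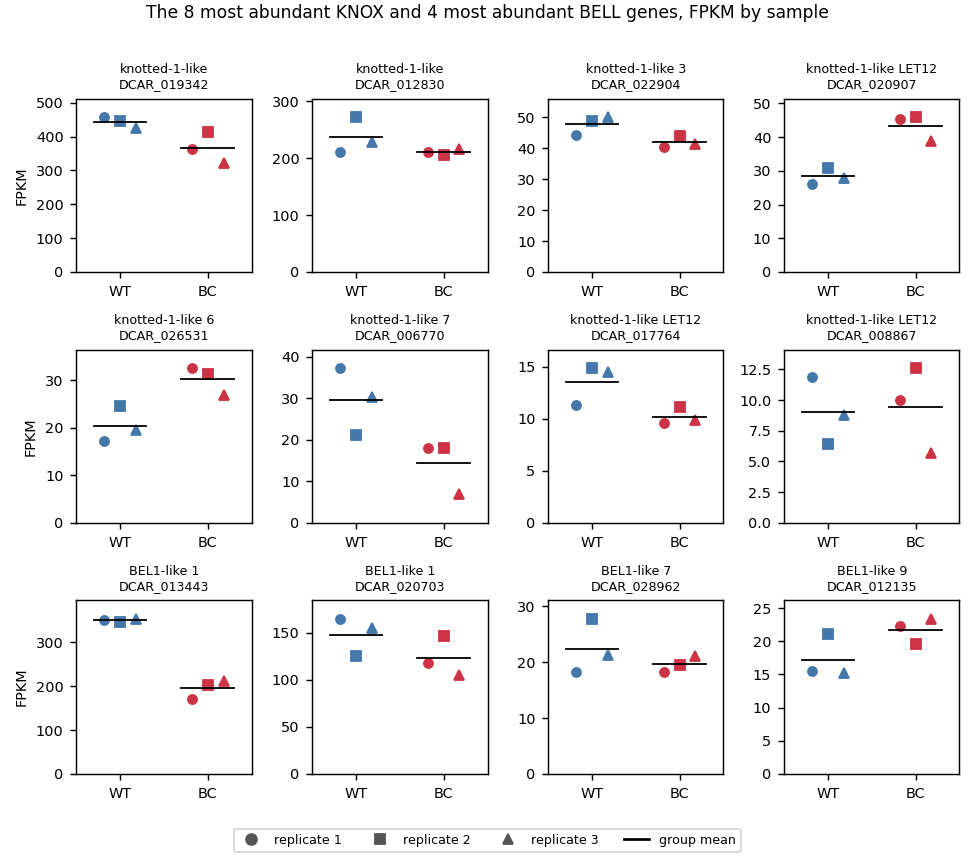
Each panel plots the FPKM of 1 gene by sample for the 8 most abundant tested KNOX and the 4 most abundant tested BELL genes, with WT in blue, BC in red, symbols for replicate numbers and a line at the group mean. The BEL1-like 1 gene DCAR_013443 drops from about 350.6 to 195.2 FPKM with no overlap, and the most abundant KNOX gene lies lower in BC by a smaller margin.

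The homeobox gene with the largest fold change belonged to HD-ZIP class I. HAT7-like (DCAR_006725) was at 1.85, 9.07 and 3.78 FPKM in the WT samples and 86.3, 94.9 and 137 FPKM in the BC samples. The lowest BC sample was far above the highest WT sample. Its mean rose from 4.90 ± 3.74 to 106 ± 27.1 FPKM (SD, n = 3 each), 21.6-fold, with a log2 fold change of 4.35, a standard error of 0.45 and an adjusted p of 0.000462 (limma).

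HAT5 (DCAR_011209), named for an Arabidopsis class I gene, was at 30.8, 28.4 and 19.8 FPKM in WT, against 108, 91.0 and 104 in BC. It rose 3.84-fold by its means, with no overlap, a log2 fold change of 1.92, a standard error of 0.17 and an adjusted p of 0.000252 (limma). Both calls held under every alternative fit. HOX20-like (DCAR_026596) rose from 95.2 ± 13.9 to 132.9 ± 18.8 FPKM (log2 fold change 0.48, adjusted p = 0.0384, limma), but the call was lost without any one sample other than BC replicate 1, with adjusted p of 0.0577 to 0.108. No filter, equal totals, median-ratio size factors or no trend lost it as well (0.0522 to 0.083), and so did leaving out both libraries numbered 2 (0.158).

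Other genes described as HAT5-like went the other way or did not pass the test. DCAR_016533 was at 246, 230 and 259 FPKM in the WT samples and 169, 184 and 180 FPKM in the BC samples. It fell by 0.46 (standard error 0.085, adjusted p = 0.00538, limma) under every alternative fit. DCAR_031059 fell from 217 ± 22.6 to 161 ± 14.1 FPKM (adjusted p = 0.0221, limma), with an adjusted p of 0.0524 to 0.0877 when WT replicates 1 or 3 or BC replicates 2 or 3 were left out and 0.0535 with median-ratio size factors. The most abundant homeobox gene of the roots, HAT5-like DCAR_026075, was at 661, 604 and 632 FPKM in WT, against 716, 713 and 812 in BC. Its samples did not overlap, but the log2 fold change of 0.24 was not called (adjusted p = 0.107, limma). Its mean was at percentile 98.9 among tested genes.

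ATHB-12-like (DCAR_002986), whose Arabidopsis namesake is induced by water deficit and abscisic acid, was at 74.6, 36.1 and 60.3 FPKM in the WT samples and 30.1, 35.4 and 26.5 FPKM in the BC samples. The lowest WT sample was barely above the highest BC sample, both of them libraries numbered 2. It fell by 0.82 (standard error 0.26, adjusted p = 0.0404, limma), and the call was lost without any one sample other than WT replicate 2, with adjusted p of 0.0539 to 0.122, as well as with no filter (0.06) and with median-ratio size factors (0.0644). The ATHB-6 genes DCAR_003466 and DCAR_014200, named for an Arabidopsis gene of the abscisic acid response, were at means of 571 and 214 FPKM in WT and 629 and 236 FPKM in BC, with adjusted p of 0.366 and 0.345 (limma).

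The summed level of HD-ZIP class II was 382 to 453 FPKM in WT and 604 to 655 FPKM in BC, and a pair of genes carried most of the difference. HAT22-like DCAR_025834 was at 141, 148 and 136 FPKM in WT, against 301, 263 and 282 in BC, with no overlap. It rose 1.99-fold by its means, with a log2 fold change of 0.99, a standard error of 0.087 and an adjusted p of 0.000238 (limma). HOX11-like DCAR_015704, named for a rice gene, was at 60.1, 46.0 and 63.5 FPKM in the WT samples and 112, 144 and 103 FPKM in the BC samples, and rose by 1.07 (standard error 0.17, adjusted p = 0.00298, limma). Both calls held under every alternative fit.

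A second HAT22-like gene (DCAR_010783) went from 115.9 ± 15.6 to 145.2 ± 6.005 FPKM without passing the threshold (adjusted p = 0.0511, limma), except without WT replicate 3 (0.0383). HAT4-like DCAR_027755, whose Arabidopsis namesake HAT4 (ATHB-2) drives the shade response, was at 98.4, 51.8 and 77.2 FPKM in WT, against 41.3, 50.3 and 34.0 in BC. It fell by 0.81 (standard error 0.25, adjusted p = 0.0355, limma), with an adjusted p of 0.0929 to 0.104 when WT replicates 1 or 3 or BC replicates 1 or 3 were left out, 0.0533 with no filter and 0.0594 with median-ratio size factors. The other HAT4 and HAT4-like genes tested, DCAR_006848 and DCAR_008517, had log2 fold changes of 0.22 and 0.08 (adjusted p = 0.364 and 0.743, limma), and the first was called without WT replicate 2 (0.41, adjusted p = 0.0458).

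**Figure D5:**
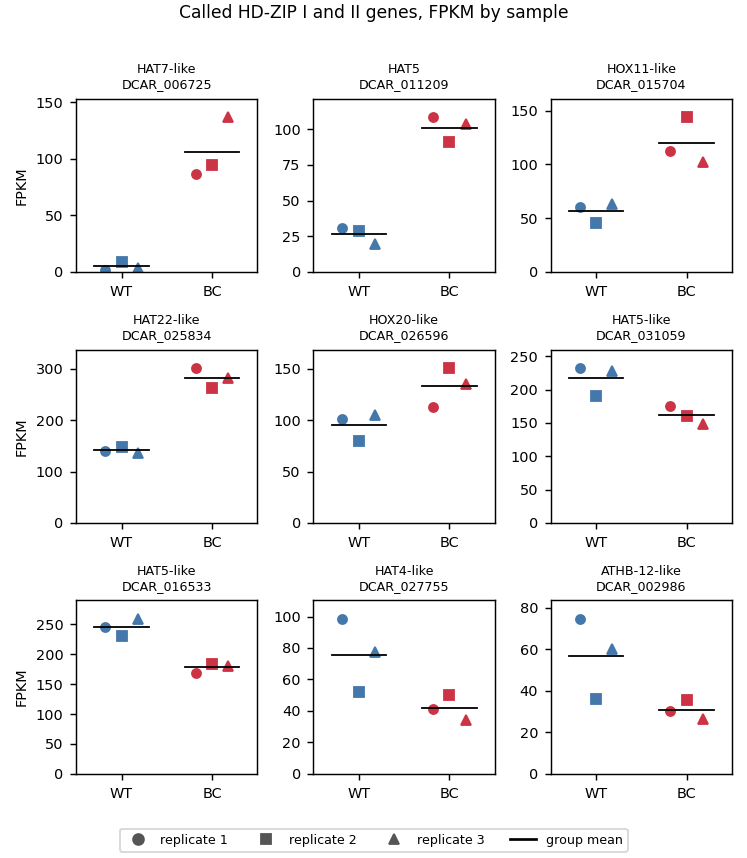
Each panel plots the FPKM of 1 gene by sample for the 9 called HD-ZIP class I and II genes, ordered from the largest to the smallest log2 fold change, with WT in blue, BC in red, symbols for replicate numbers and a line at the group mean. HAT7-like is at 86.3 to 137 FPKM in BC and at 1.85 to 9.07 FPKM in WT, while in HAT4-like and ATHB-12-like the WT square (replicate 2) lies close to the BC samples.

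Some homeobox proteins act on chromatin. RLT1 of Arabidopsis is a partner of ISWI chromatin remodellers. RLT1-like DCAR_004044 was at 18.5, 18.2 and 18.4 FPKM in the WT samples and 8.48, 9.39 and 12.1 FPKM in the BC samples, with no overlap, and fell by 0.83 (standard error 0.14, adjusted p = 0.0038, limma). A second RLT1-like gene (DCAR_028055) fell by 0.56 (adjusted p = 0.0196, limma), with an adjusted p of 0.0591 to 0.0696 when WT replicates 1 or 3 or BC replicates 1 or 2 were left out. Without both libraries numbered 2 the adjusted p was 0.0968 (limma). RLT3 (DCAR_028382) had a log2 fold change of -0.24 (adjusted p = 0.164, limma) and was called with quantile normalization (-0.38, adjusted p = 0.0234).

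SAWADEE homeodomain homolog 1 recruits the RNA-directed DNA methylation machinery in Arabidopsis. The gene with this name (DCAR_023078) was at 7.47, 11.2 and 8.67 FPKM in WT, against 16.9, 14.7 and 15.7 in BC, and rose by 0.74 (standard error 0.16, adjusted p = 0.00911, limma). The more abundant homolog 1-like gene DCAR_000760 fell from 59.9 ± 7.59 to 41.3 ± 4.29 FPKM (adjusted p = 0.015, limma), with an adjusted p of 0.0532 without WT replicate 3. SAWADEE homeodomain homolog 2-like (DCAR_019583), the most abundant of these genes, was at 113, 101 and 105 FPKM in WT, against 92.6, 86.1 and 91.5 in BC. The groups did not overlap, but the log2 fold change of -0.24 missed the threshold (adjusted p = 0.0526, limma), and it was called lower with a pseudocount of 0.1, with no filter, with equal totals, with quantile normalization and without WT replicate 2 (adjusted p of 0.0186 to 0.0496). The 2 nodulin homeobox genes also moved in opposite directions, since DCAR_005834 rose from 8.12 ± 0.86 to 14.2 ± 0.812 FPKM (adjusted p = 0.00309, limma) and DCAR_002782 fell from 6.69 ± 0.572 to 3.82 ± 0.15 FPKM (adjusted p = 0.0056, limma).

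Zinc-finger homeodomain protein 6 (DCAR_025947) was at 2.27, 1.51 and 1.93 FPKM in the WT samples and 0.07, 0.48 and 0.21 FPKM in the BC samples, and fell by 1.22 (adjusted p = 0.00297, limma). It passed the filter on low values through the WT samples alone. The most abundant gene of that type, zinc-finger homeodomain protein 10-like (DCAR_025374), was at 3.11, 1.16 and 2.05 FPKM in the WT samples and 1.64, 0.2 and 1.11 FPKM in the BC samples, overlapping groups with a log2 fold change of -0.67 (adjusted p = 0.17, limma) that was called with quantile normalization (-1.05, adjusted p = 0.0495). LUMINIDEPENDENS (DCAR_018344), a flowering-time gene in Arabidopsis, was at 10.4 FPKM on average in both groups, with a log2 fold change of -0.01 and a 95% interval from -0.34 to 0.33. The more abundant GLABRA 2-like gene (DCAR_016210), named for an epidermal regulator, was at 11.3, 18.9 and 14.6 FPKM in WT, against 12.98, 10.1 and 14.2 in BC (adjusted p = 0.397, limma). The 3 PHD genes are named for a pathogenesis-related homeodomain protein first described in parsley. DCAR_001661, DCAR_020149 and DCAR_029097 had log2 fold changes of -0.43, -0.19 and -0.18 (adjusted p = 0.0587, 0.239 and 0.452, limma).

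Other genes of the same pathways were read from search-word lists. Some of their called genes passed the filter on low values through 1 group alone, as stated below. Over 8 lists of meristem and cambium genes, 22 of 81 tested genes rose and 13 fell, a share of 43.2%, beside 46.4% of all tested genes, with a median log2 fold change of 0.14 against -0.02. Some KNOX proteins of Arabidopsis raise cytokinin synthesis and hold down gibberellin 20 oxidase. Of 6 tested cytokinin genes 1 rose and 3 fell. LOG3-like (DCAR_020835), an enzyme that releases active cytokinin, was at 109, 131 and 138 FPKM in the WT samples and 41.1, 39.2 and 66.2 FPKM in the BC samples, and fell by 1.38 (standard error 0.21, adjusted p = 0.00239, limma).

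The isopentenyltransferase 3-like genes DCAR_018410 and DCAR_012465, for the first step of cytokinin synthesis, fell by 1.55 and 1.45 from levels of 1.53 to 3.98 FPKM in WT to at most 0.26 FPKM in BC (adjusted p = 0.004 and 0.000803, limma). LOGL10 (DCAR_017476) rose from 0.11 to 0.42 FPKM in WT to between 1.43 and 5.15 FPKM in BC (log2 fold change 1.56, adjusted p = 0.0101, limma). It passed the filter on low values through the BC samples alone and both isopentenyltransferase genes through the WT samples alone, so 3 of the 4 cytokinin calls come from genes that had to differ to be tested. Of 6 tested gibberellin oxidases 3 rose and 0 fell, at an unadjusted p below 0.05 also 0 (limma). Of all tested genes 46.4% were called, 22.8% higher and 23.5% lower. Gibberellin 20 oxidase 2 (DCAR_018139), a synthesis enzyme, was at 46.4, 47.9 and 47.4 FPKM in WT, against 79.6, 58.2 and 79.6 in BC, and rose by 0.59 (adjusted p = 0.0118, limma). Gibberellin 2-beta-dioxygenase 2 (DCAR_011821), which inactivates gibberellin, rose by 1.37 (adjusted p = 0.00347, limma).

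LOB domain genes, which shape organ boundaries and lateral roots, rose in 6 of 16 cases and fell in 2, and 46.4% of all tested genes were called. An LBD4-like gene (DCAR_001338), whose Arabidopsis namesake lies at the phloem side of the cambium, was at 2.54, 2.74 and 4.43 FPKM in the WT samples and 27.4, 19.8 and 32.9 FPKM in the BC samples, and rose by 2.71 (standard error 0.24, adjusted p = 0.000248, limma). A second LBD4-like gene (DCAR_016829) rose by 0.84 (adjusted p = 0.0125, limma), while LBD41-like (DCAR_000361) went from between 55.1 and 59.5 FPKM to between 16.4 and 20.5 FPKM and fell by 1.63 (adjusted p = 5.7e-05, limma). Of 23 tested GRAS genes 7 rose and 5 fell, 52.2% called. Among the rises, a scarecrow-like 21 gene (DCAR_019917) passed the filter on low values through the BC samples alone. Its levels were 0.29, 0.11 and 0.14 FPKM in WT, against 1.48, 2.71 and 1.02 in BC. CUP-SHAPED COTYLEDON 1-like (DCAR_020996), a boundary gene, was at 7.07, 4.08 and 5.7 FPKM in WT, against 0, 0.13 and 0.07 in BC, and fell by 2.61 (adjusted p = 0.00014, limma). It passed the filter on low values through the WT samples alone. It was the 1 fall among 7 tested genes of the boundary and xylem list, and the 2 rises there were stress response NST1 genes caught by the search words.

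Of the 26 untested homeobox genes, 10 were listed at 0 in all samples and the highest value of the rest was 2.22 FPKM. WUSCHEL itself, the WUSCHEL-related homeobox 1-like, 5-like and 6-like genes and 1 of the 9-like genes were among those at 0. WUSCHEL-related homeobox 5, which in Arabidopsis marks the stem-cell organiser of the root tip, was at 0.43, 0.15 and 1.14 FPKM in the WT samples and 1.48, 0 and 0.15 FPKM in the BC samples. BEL1-like 3 (DCAR_009962) was at 0.12, 0.19 and 0.18 FPKM in WT, against 0.81, 0.72 and 0.60 in BC, below the filter in both groups. Of the 7 HD-ZIP class IV genes, 5 were below the filter.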

How the data were processed

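RNA-seq of carrot fleshy roots (3 WT and 3 BC samples) was taken from 1 deposited table of FPKM values per gene and sample, made with RSEM per the submitters' processing notes. The sources used here name no aligner, genome build, annotation or strand setting. RSEM divides reads shared by similar genes, so values of near-identical copies are uncertain. FPKM are not counts, depth is unknown, and no counting interval is given.

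The homeobox genes, types, lists, tests and named genes were chosen with earlier results of these data known. A filter of 1 FPKM in 3 samples kept 21033 genes. From the deposited FPKM values, log2(FPKM + 1) was fitted for BC minus WT with limma 3.58.1 (trended eBayes) under R 4.3.3, and genes were called at a Benjamini-Hochberg adjusted p below 0.05. Low genes change by more than the log2(FPKM + 1) scale shows, and the 95% intervals are not adjusted for the number of genes. The fit was tested on simulated data. Alternatives were pseudocounts of 0.1 and 5, other filters, 3 rescalings (equal totals, quantiles, median-ratio size factors), eBayes robust or untrended, a replicate block, and leaving out single samples. Leaving out the sample nearest to the other group had to enlarge the difference, so a call gained that way is no support.

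Named genes were all tested WOX, KNOX, BELL and HD-ZIP III genes. Other types were represented by their most abundant gene, their called genes at either extreme of fold change, and any called gene past 2-fold whose mean reached 5 FPKM in 1 group. Genes printed beyond this rule (SHORT-ROOT, TDR, BAM1, LITTLE ZIPPER, further HD-ZIP, PHD, RLT, nodulin homeobox and hormone genes, and those below the filter) were chosen after their values were seen. RefSeq (assembly DH1 v3.0) gave gene order alone, and 92 of the 100 homeobox genes matched it. Plots used matplotlib 3.10.9 and Python 3.11.15.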

Additional observations from a re-analysis of the deposited data

How the results depend on the processing

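The counts of 11 homeobox genes higher and 14 lower in BC were 9 to 12 and 6 to 17 when single samples were left out, and the counts of 22 and 13 in the meristem and cambium lists were 14 to 22 and 9 to 14. The lowest counts came without WT replicate 3 in homeobox genes lower in BC (6) and in list genes higher in BC (14). Over all 21033 tested genes, the fits without single samples gave 3446 to 4873 higher and 3193 to 5203 lower calls. The fit reported gave 4806 and 4943. With the replicate number as a block the counts were 10 and 9 homeobox genes and 17 and 11 list genes, beside 4032 and 3921 of all tested genes. The numbers did not pair the samples, since the correlations of the deviations of samples with the same number were 0.196, -0.356 and -0.195. Without both libraries numbered 2, a fit added after the data were seen, the counts were 16 and 18 homeobox genes and 30 and 14 list genes. That fit called 4956 of all tested genes higher and 3821 lower. Among the named or called homeobox genes it brought 8 calls and lost 3. Over the 87 genes with a homeodomain entry, also added later, 10 were higher and 10 lower of 64 tested. The median log2 fold change of all genes was -0.109 with equal totals and -0.083 with quantile normalization, against -0.016 in the fit reported. No named gene changed direction past the threshold under any alternative, and the cause of lost calls was not tested.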
